A study of Mus musculus with 2 samples.

Results

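The 9 genes that encode the subunits of AMPA and kainate receptors were followed through the hippocampus of PS19 and PZKO mice. They are the 4 AMPA receptor subunit genes *Gria1*, *Gria2*, *Gria3* and *Gria4* and the 5 kainate receptor subunit genes *Grik1*, *Grik2*, *Grik3*, *Grik4* and *Grik5*, chosen by symbol, and all 9 are among the 32285 genes counted. Single-nucleus RNA sequencing (snRNA-seq), which reads the RNA of separated nuclei from a barcoded droplet each, was done on 1 library from each of 2 genotypes, PS19 and PZKO. PS19 mice carry 1 copy of a transgene for mutant human tau, which is driven by the mouse prion protein (*Prnp*) promoter, and develop tauopathy. PS19 animals were *Zbp1* wild type, and PZKO animals were their littermates with the same transgene and no functional *Zbp1* (*Zbp1* -/-). Every animal was a male aged 9 months, both groups carried the tau transgene, and no group without it was sequenced. The methods state that the hippocampi of 5 males were pooled for each genotype, while the extraction protocol speaks of animals processed separately, and nuclei cannot be traced to an animal in the counts. As no genotype had a replicate library, no test between genotypes was made, and all intervals given here are 95% intervals that cover counting error only.

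AMPA and kainate receptors are glutamate-gated cation channels, each built from a tetramer of subunits, and they carry most of the fast excitatory current and part of the presynaptic control of release in the hippocampus. In AMPA receptors, the product of *Gria2* makes the channel nearly impermeable to calcium, because its transcript is edited so that the codon for a pore-lining residue, the Q/R site, reads as arginine instead of glutamine. In kainate receptors, the products of *Grik1*, *Grik2* and *Grik3* can form channels by themselves, while those of *Grik4* and *Grik5* bind kainate with high affinity and need one of the other subunits to form a channel. Transcripts of *Grik1* and *Grik2* can also be edited at the Q/R site. A mix of subunits rich in *Gria2* and one poor in it therefore belong to channels with different properties.

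The coding sequence around this site is given here for each subunit, since it is the stretch through which the choice of subunits acts on the pore. Each line holds 30 bases of the coding strand, read from the GENCODE M21 transcripts (GRCm38, the build of the counts), with the unedited Q/R codon in capitals.
Gria1: ctgggggccttcatgCAGcaaggatgtgac
Gria2: ttgggtgcctttatgCAGcaaggatgcgat
Gria3: ttgggtgcttttatgCAGcaaggatgtgat
Gria4: ctgggtgcctttatgCAAcaaggatgtgac
Grik1: gttggagctctcatgCAGcaaggatcggag
Grik2: gttggagctctcatgCAGcaaggttctgag
Grik3: atgggctccctgatgCAGcaaggatctgaa
Grik4: gttggaggcttcatgCAGcaaggctccact
Grik5: gtgggtggcttcatgCAGcagggctcggag

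The codon in capitals lies at chr11:57243094-57243096 in *Gria1* on the plus strand, at chr3:80706911-80706913 in *Gria2* on the minus strand, at chrX:41610265-41610267 in *Gria3* on the plus strand and at chr9:4464137-4464139 in *Gria4* on the minus strand. In the kainate subunits it lies at chr16:87940542-87940544 in *Grik1*, chr10:49244329-49244331 in *Grik2*, chr9:42547623-42547625 in *Grik4* and chr7:25022497-25022499 in *Grik5*, all on the minus strand, and at chr4:125691207-125691209 in *Grik3* on the plus strand. All of these positions are exonic and coding, and the windows of *Grik1*, *Grik2* and *Grik3* run across an exon junction. Each subunit has the codon CAG for glutamine there, apart from *Gria4*, which has CAA. The closest windows were those of *Gria2* with *Gria3* and of *Grik1* with *Grik2*, with 28 identical bases of 30 in each pair, and the least alike were *Gria4* with *Grik4* and *Grik3* with *Grik4*, with 18 identical bases. The counts do not record whether a transcript was edited, so the mix of subunits below is one of transcripts and not of edited channels.

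All 9 genes except *Grik5* span at least 100 kb, as do 8.72% of the genes with a known span. *Grik5* is the shortest at 62.5 kb (chr7:25009849-25072346) and *Grik2* the longest at 694 kb (chr10:49094833-49788766). A library made from nuclei counts unspliced RNA too, and a long gene offers more places for it to be captured. Levels of one subunit across classes were therefore compared as UMIs (unique molecular identifiers, 1 for each captured RNA molecule) per 1000000 UMIs of the class (CPM), and levels of different subunits only per kb of gene span. No gene on the opposite strand overlapped any of the 9, while small annotated genes lie on the same strand within *Gria2*, *Gria3*, *Gria4*, *Grik2*, *Grik3* and *Grik4*.

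The PS19 library held 11469 barcodes with a median of 5642 UMIs and the PZKO library 10920 barcodes with a median of 8342.5 UMIs, and 9590 and 9307 nuclei were left after filters and removal of doublets. Of the barcodes, 47 occurred in both libraries, 29 of them among the nuclei kept. *Zbp1*, the deleted gene, had 92 UMIs in PS19 and 38 in PZKO (log2 ratio -1.87, 95% interval -2.46 to -1.31), so it was lower in PZKO but not absent, and which exons were deleted was not analysed here. The nuclei fell into 32 clusters, and those named from markers are strictly X-like (dentate granule-like, CA1-like and so on), a suffix left out from here on. The hippocampal markers were present, with dentate granule, CA1 and CA3 clusters, but 7 of the 10 excitatory clusters lay outside these. Of those 7, a deep-layer and a near-projecting cluster carried the markers of cortical neurons, and 5 are called by 2 of their leading genes (Exph5/Rskr, Tshz2/Vwc2l, Shoc1/Npsr1, Adamts19/Synpo2 and Fyb2/Zfp804b). Inhibitory neurons formed an Lhx6 cluster, which was split into Sst and other Lhx6 interneurons, an Adarb2 cluster and an Ano2/Pld5 cluster. In the Lhx6 cluster 1 sub-cluster of 17 PS19 and 32 PZKO nuclei stayed unnamed. It counts in the Lhx6 values but in neither subtype. The mix of excitatory clusters differed between the libraries, with dentate granule neurons at 35.9% of excitatory nuclei in PS19 and 16.7% in PZKO and the Exph5/Rskr cluster at 12.1% and 20.8%.

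*Gria1*, which encodes an AMPA receptor subunit that is central to plasticity at hippocampal synapses, was highest in Sst interneurons and in the 3 hippocampal principal classes. Its level was 4218 CPM in PS19 and 4056 CPM in PZKO in Sst interneurons, 3259 and 3629.6 CPM in CA1, 3030.3 and 3399 CPM in dentate granule neurons and 2648 and 3048 CPM in CA3. The Sst level lay above that of CA1 in both libraries, while CA1, dentate granule and CA3 neurons overlapped their neighbours in this order. In the excitatory clusters outside the hippocampal principal classes it was lower, from 45.4 and 73.5 CPM in Fyb2/Zfp804b to 1668 and 1623 CPM in Shoc1/Npsr1. Over 24 classes and subtypes the mean of both libraries ranged 124-fold, and 15 of 23 neighbouring pairs in the order overlapped between libraries.

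*Gria2* was the most even of the AMPA subunits across neurons. It was highest in CA1 at 2397 CPM in PS19 and 2419.9 CPM in PZKO, followed by CA3 at 2223 and 2375 CPM and dentate granule neurons at 2186 and 2255 CPM. CA1 lay above CA3 in both libraries, and CA3 and dentate granule neurons overlapped. Interneurons of the Lhx6 and Adarb2 clusters held less than the hippocampal principal neurons, with 997 and 1154 CPM in Sst, 1049 and 1033 CPM in other Lhx6 and 1047 and 1016 CPM in Adarb2 interneurons, close to that of oligodendrocyte precursor cells (OPCs, 1239 and 1253 CPM) and astrocytes (1062 and 1203 CPM). The lowest neuronal level was that of Adamts19/Synpo2, at 539 and 503 CPM.

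*Gria3* was highest in Shoc1/Npsr1, at 1317 CPM in PS19 and 1408 CPM in PZKO, and then in deep-layer neurons (1157 and 1205 CPM) and other Lhx6 interneurons (1103 and 1242 CPM), which overlapped. Adarb2 interneurons stood apart from the Lhx6 interneurons with 224 and 236 CPM. Cajal-Retzius neurons, the early-born reelin neurons of the outer layer, had only 2 and 5 UMIs of *Gria3* in the 2 libraries.

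*Gria4*, whose product is known for fast channels in interneurons, was highest in other Lhx6 interneurons at 2342 CPM in PS19 and 2580.4 CPM in PZKO, and the Fyb2/Zfp804b cluster and Sst interneurons followed with 1883 and 2186 CPM and 2022 and 1874 CPM. Among excitatory neurons it ran opposite to *Gria1*. Dentate granule, CA1 and CA3 neurons held 163 and 191 CPM, 228 and 223 CPM and 233 and 296 CPM, whereas near-projecting, Tshz2/Vwc2l, Exph5/Rskr, Adamts19/Synpo2 and Fyb2/Zfp804b ranged from 915 to 2186 CPM. In none of these did the 2 libraries overlap with the hippocampal principal neurons.

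*Grik1*, a kainate receptor subunit best known from interneurons, was close to absent from hippocampal principal neurons. It reached 1828 CPM in PS19 and 2135 CPM in PZKO in Sst interneurons, 1486 and 1599 CPM in Adarb2 interneurons, 916 and 1106 CPM in near-projecting neurons and 810.5 and 691 CPM in other Lhx6 interneurons, 4 classes that did not overlap in this order. Dentate granule, CA1, CA3 and deep-layer neurons held 1.24 and 6.89 CPM, 4.30 and 7.19 CPM, 5.01 and 2.23 CPM and 4.65 and 3.59 CPM, and microglia, which are not known to use the gene, held 3.97 and 3.28 CPM. The levels of *Grik1* in these 4 excitatory classes thus lay at or near that of a class which should lack it.

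*Grik2*, the most widely used kainate receptor subunit gene, was highest in Adarb2 interneurons at 2447 CPM in PS19 and 2958 CPM in PZKO, and Sst interneurons, Shoc1/Npsr1 and dentate granule neurons followed with overlapping levels (1816 and 2236 CPM, 1793 and 1826 CPM and 1725 and 1815 CPM). CA3 neurons held 1338 and 1383 CPM and CA1 neurons 737 and 810.0 CPM. Oligodendrocytes (1192 and 1266 CPM) and OPCs (1032 and 1269 CPM) held more than CA1, deep-layer or near-projecting neurons did. Cajal-Retzius neurons were the exception among neurons, with 72.2 and 73.9 CPM from 11 and 17 UMIs.

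*Grik3* was highest in deep-layer neurons (406 CPM in PS19 and 518 CPM in PZKO) and near-projecting neurons (353 and 512 CPM), which overlapped. Sst interneurons followed (234 and 388 CPM) and overlapped near-projecting neurons, and OPCs lay below them (152 and 178 CPM). In CA1 and CA3 it was at 5.98 and 8.37 CPM and 2.93 and 3.99 CPM, beside 4.88 and 2.99 CPM in microglia. Dentate granule neurons lay between, at 53.5 and 73.5 CPM. *Grik3* was among the 10 genes that led the deep-layer cluster, although the subunits had been left out of the genes used for clustering.

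*Grik4* marked CA3, where mossy fibre synapses are rich in kainate receptors. It stood at 901 CPM in PS19 and 919.9 CPM in PZKO there, against 321 and 285 CPM in dentate granule neurons and 97.3 and 94.3 CPM in CA1. The next class was not neuronal, since OPCs held 409 and 432 CPM, above deep-layer (320.4 and 330.1 CPM) and Tshz2/Vwc2l neurons (331 and 315 CPM) in both libraries. Ependymal cells, which line the ventricles, held 175 and 221 CPM.

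*Grik5*, whose product is a common partner of the other kainate subunits, varied least, 17-fold between deep-layer neurons (150.0 and 167 CPM) and microglia (5.49 and 13.1 CPM). Choroid plexus cells, with 58.1 and 99 CPM, held more of it than of any other kainate subunit per kb of gene span.

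**Figure D1:**
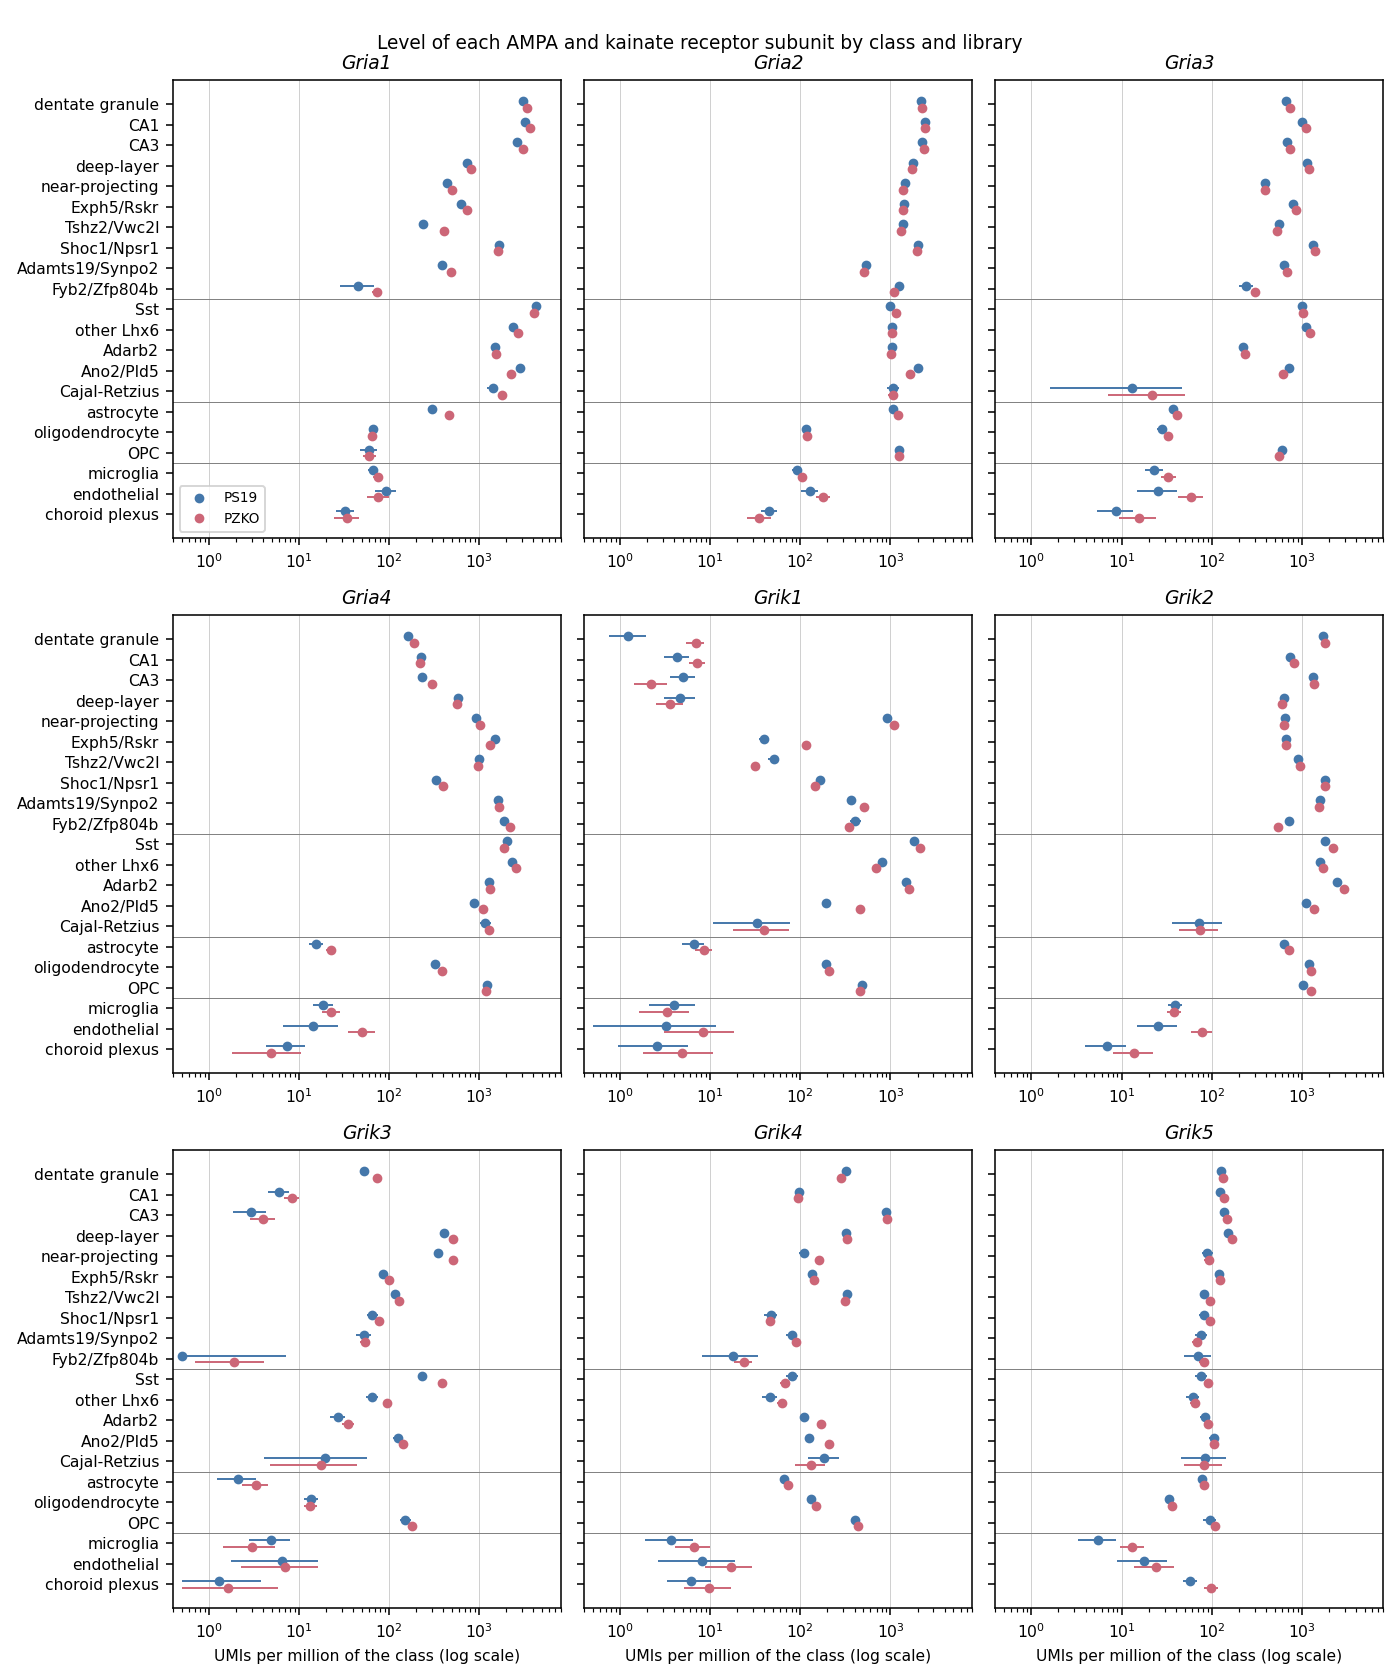
Level of each subunit (CPM, log axis) by class, with PS19 in blue and PZKO in red, horizontal bars for exact 95% Poisson intervals, and levels of 0 drawn at the left edge. Grey lines separate excitatory, other neuronal, glial and background classes. *Gria1* and *Gria4* run opposite across the excitatory clusters, *Grik1* is near the microglial level of 4 CPM in dentate granule, CA1, CA3 and deep-layer neurons, and *Grik4* peaks in CA3 at 901 and 919.9 CPM.

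The subunit mix is given as the share of each subunit in the summed level of its family per kb of gene span. The share of *Gria2* in the AMPA family is the part of the mix that bears on calcium permeability, and its range over classes was wider than the difference between the libraries in any class. It was lowest in Sst interneurons, at 27% in PS19 and 30.8% in PZKO, and in other Lhx6 interneurons, at 33% in PS19 and 30.1% in PZKO, with overlapping ranges. The Sst share includes a sub-cluster rich in *Gria1* whose Sst name is marginal, as described below. Without it the Sst levels were 2446 and 2999 CPM for *Gria1* and 1036 and 1221 CPM for *Gria2*. Per kb of gene span *Gria2* then led *Gria1*, and its share lay above that of other Lhx6 interneurons in both libraries. The lowest place of Sst interneurons and the lead of *Gria1* there thus rest on that sub-cluster. Adamts19/Synpo2, an excitatory cluster, came next with 36.4% in PS19 and 33.3% in PZKO. Oligodendrocytes (44.5% and 41.8%) and Adarb2 interneurons (49.4% and 47.9%) followed. The level of *Gria2* in oligodendrocytes (114 and 117 CPM) was near that of microglia (91 and 105 CPM), so its share there may be largely background. CA1 and dentate granule neurons overlapped, with 57.8% and 55.5% and 59.3% and 57.3%, and CA3 neurons lay above both with 61.6% and 60%. Near-projecting neurons reached 69.6% in PS19 and 66.7% in PZKO, and astrocytes stood far above all with 88.7% in PS19 and 85.7% in PZKO.

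The length scale sets the size of these shares but hardly their order. As a plain share of AMPA UMIs, *Gria2* took 12.1% (11.6% to 12.6%) in Sst interneurons and 75.1% (74.3% to 75.9%) in astrocytes of PS19, and 14.2% (13.8% to 14.6%) and 69.6% (69% to 70.3%) of PZKO, with exact binomial intervals. Of the 18 neuronal and glial classes ranked by this share, the 7 lowest and the highest held the same ranks per kb of gene span, per UMI and per kb of merged exons. The leading AMPA subunit of a class is not settled in the same way. By the mean share of both libraries per kb of gene span, *Gria2* led 22 of 24 classes. *Gria1* led Sst interneurons, only with the sub-cluster rich in it included, and *Gria4* led Adamts19/Synpo2. In Adamts19/Synpo2 the libraries disagreed, as *Gria2* led in PS19 (36.4% against 35%) and *Gria4* in PZKO (34.8% against 33.3%). They also disagreed in oligodendrocytes (*Gria4* first in PZKO) and vascular leptomeningeal cells (*Gria3* first in PS19), both among the 22. The 22 include classes with few AMPA UMIs, such as microglia, endothelial, choroid plexus and ependymal cells. After subtraction of an estimated profile of free RNA, taken as the sum over the nuclei kept of each library, *Gria2* led 15. The subtraction left no AMPA UMIs in microglia, endothelial, choroid plexus and ependymal cells, so these had no leader. Without scaling *Gria2* led 11 classes and *Gria1* led 8, among them dentate granule, CA1 and CA3, and per kb of exons *Gria1* led 15 and *Gria2* only astrocytes.

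The rest of the AMPA mix differed between hippocampal principal neurons and the Lhx6 and Adarb2 interneurons mainly in *Gria4*. Its share was 1.42% in PS19 and 1.56% in PZKO in dentate granule neurons, 1.76% and 1.64% in CA1 and 2.07% and 2.40% in CA3. In Sst, other Lhx6 and Adarb2 interneurons it was 17.6% and 16%, 23.6% and 24.1% and 19.2% and 19.9%. A high share was not particular to interneurons. Among the other excitatory clusters it was 35% and 34.8% in Adamts19/Synpo2, 30.6% and 35.8% in Fyb2/Zfp804b and 19.2% and 17.3% in Exph5/Rskr. The shares of *Gria1* were alike in dentate granule (31.3% and 32.9%), CA1 (29.9% and 31.7%) and other Lhx6 neurons (28.2% and 30%), so it was *Gria4* and *Gria3* that took the place of *Gria2* in the last. *Gria3* made up 18.3% and 19% of the mix in deep-layer neurons and 17.1% and 18.5% in Shoc1/Npsr1, against 4.62% and 4.85% in Adarb2 interneurons.

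The kainate mix per kb of gene span also differed from one class to the next. In dentate granule neurons *Grik2* took 45.1% in PS19 and 45.4% in PZKO and *Grik5* 36.9% and 37%. In CA1 the order was the reverse, with *Grik5* at 59.7% in PS19 and 60.5% in PZKO and *Grik2* at 32.3% and 31.9%. In CA3, *Grik2*, *Grik4* and *Grik5* took nearly equal shares of 30.9% and 30.5%, 33.9% and 33.1% and 34.8% and 36%. Deep-layer neurons combined *Grik5* (40.6% and 40.2%) with *Grik3* (30.8% and 34.9%), and near-projecting neurons combined *Grik1* (35.5% and 35.7%) with *Grik3* (24.1% and 29.1%). In Sst interneurons *Grik1* took 47.7% and 45.1% and *Grik2* 26.9% and 26.9%. In Adarb2 interneurons the shares were nearly even, with 41.8% and 39.3% for *Grik1* and 39.1% and 41.3% for *Grik2*. *Grik5* is the shortest gene, so its shares fall most without scaling to length: it led 14 classes per kb of gene span, 3 per kb of exons and 1 without scaling. Without scaling *Grik2* led 21 of the 24 classes. It then took 77.4% in PS19 and 78.4% in PZKO in dentate granule neurons and 76.2% and 76.5% in CA1. *Grik2* led these 2 classes per kb of exons too, so their reversed order holds per kb of gene span only. The near equality in CA3 also holds on that scale only. There *Grik2* took 56.2% and 56.3% and *Grik4* 37.8% and 37.5% without scaling, and *Grik4* led with 54.1% and 53.6% per kb of exons. In deep-layer neurons *Grik2* led without scaling, with 42.1% and 37.3%.

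**Figure D2:**
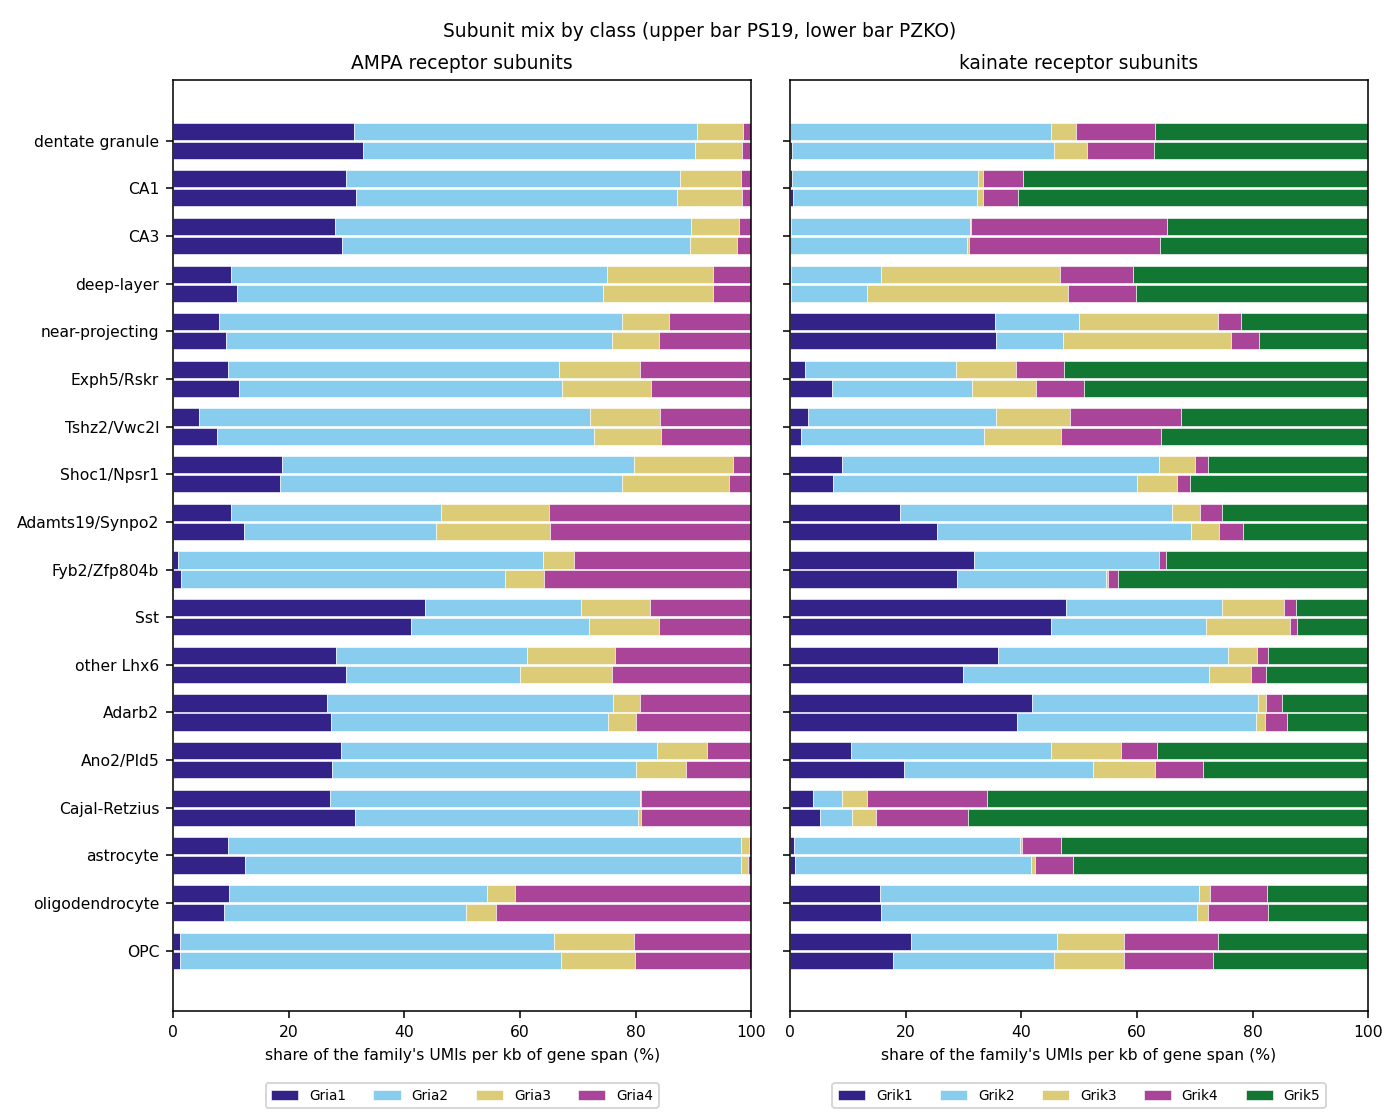
Share of each subunit in its family (UMIs per kb of gene span, %), AMPA on the left and kainate on the right, with PS19 as the upper and PZKO as the lower bar of each class. The share of *Gria2* (light blue, left) runs from 27% and 30.8% in Sst interneurons, taken with the sub-cluster rich in *Gria1*, to 88.7% and 85.7% in astrocytes. The range of this share over the classes is wider than the difference between the libraries in any class, while some classes, such as CA1 and dentate granule neurons, overlap.

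Within the Lhx6 cluster the subunits split further. *Gria1* reached 6955 and 7788 CPM in PS19 and PZKO in 1 Sst sub-cluster (leading genes *Adamtsl1* and *Qrfpr*, 34 and 22 nuclei), whose Sst name is marginal. Its markers found only in the Sst list had a mean log2 fold of -0.04 over the other sub-clusters, and those only in the other Lhx6 list -0.76. The 3 other Sst sub-clusters had 1.65, 1.46 and 0.35 for the Sst markers. They held 2369.5 and 3262 CPM, 3014 and 3496 CPM and 1678 and 1347 CPM of *Gria1*. Without the sub-cluster led by *Adamtsl1* the Sst level of *Gria1* was 2446 and 2999 CPM, below CA1, so the first place of Sst interneurons rests on it. A sub-cluster led by *Crh* (10 and 17 nuclei) held the most *Grik1*, at 3494 and 4466 CPM. Among the other Lhx6 interneurons, 1 sub-cluster (led by *Pde11a* and *Aox3*, 29 and 29 nuclei) combined the most *Gria4*, 2953 and 3318 CPM, with the least *Grik1*, 233 and 110.0 CPM. In Adarb2 interneurons, *Grik1* ran from 74 and 178 CPM in a sub-cluster of 12 and 11 nuclei to 2663 and 2807 CPM in one with *Npy* and *Ndnf* among its leading genes, and *Grik4* ran the other way in these sub-clusters, at 529.6 and 671 CPM and 136 and 154 CPM.

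Several subunits that OPCs held were at or near the microglial level in astrocytes or in oligodendrocytes. Astrocytes held *Gria2* (1062 and 1203 CPM), *Grik2* (632 and 724 CPM) and some *Gria1* (299.9 and 461 CPM). They also held *Grik5* (77.6 and 81.3 CPM, beside 5.49 and 13.1 CPM in microglia) and *Grik4* (66.1 and 72.5 CPM, beside 3.66 and 6.57 CPM). Per kb of gene span *Grik5* led their kainate mix with 53.2% in PS19 and 51% in PZKO. Astrocyte *Gria4* was at 15.5 and 22.5 CPM, beside 18.6 and 22.7 CPM in microglia, and *Grik1* at 6.54 and 8.47 CPM, beside 3.97 and 3.28 CPM. OPCs held *Gria2*, *Gria3*, *Gria4* and all kainate subunits. Oligodendrocytes, the myelinating cells that OPCs give rise to, kept *Grik2* (1192 and 1266 CPM) and part of *Gria4* (327 and 385 CPM against 1211 and 1189.6 CPM in OPCs), with little *Gria2* (114 and 117 CPM against 1239 and 1253 CPM). They also kept part of *Grik1* (193 and 208 CPM against 485 and 463 CPM in OPCs) and of *Grik4* (132 and 149 CPM against 409 and 432 CPM). Ependymal cells held *Grik2* (259.5 and 356 CPM) and vascular leptomeningeal cells *Gria3* (258 and 290.4 CPM). *Grik1* differed between the 3 large oligodendrocyte clusters, with 369 and 411 CPM in the one led by *Enpp6* and *Anln* and 133 and 140.3 CPM and 94.1 and 104 CPM in those led by *Opalin* and *Aspa* and by *Bfsp2* and *Il33*.

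Free RNA can reach every droplet, so low levels were set beside those of cells not known to use these genes. For *Gria1* these levels were 66.5 and 75 CPM in microglia, 93.1 and 75.9 CPM in endothelial and 32.5 and 34.4 CPM in choroid plexus cells. After each nucleus was thinned to 2000 UMIs, 11.1% and 11.3% of PS19 and PZKO OPCs and 11.7% and 13% of oligodendrocytes had a UMI of *Gria1*, beside 12% and 14.6% of microglia. Before thinning the shares were 25.8% and 37.3%, 19% and 24.1% and 19.9% and 26%, at median depths of 6797 and 10326 UMIs in OPCs, 3335 and 4259.5 in oligodendrocytes and 3316 and 4188 in microglia. *Gria1* in OPCs and oligodendrocytes was therefore at background. *Grik2* was found in 78.6% and 79.4% of thinned oligodendrocytes and 5.84% and 6.18% of microglia (85.9% and 89.3% and 8.32% and 10.5% before thinning) and lay far above background in oligodendrocytes. Of Cajal-Retzius neurons 7.44% and 10.5% had a UMI of *Grik2* (17.9% and 30% before thinning), near the microglial share, while 85.9% and 87.6% had one of *Gria4* (3.35% and 3.94% in microglia). Thinning left out 399 PS19 and 163 PZKO oligodendrocytes and 125 and 60 microglia.

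The comparison of genotypes asks whether loss of *Zbp1* in tau-transgenic mice goes with other levels of these subunits in each class. The study itself named *Gria4*, *Grik1* and *Grik3* among genes higher in PZKO excitatory neurons, from these same nuclei, so their direction in the pooled class is no independent evidence. A subunit is called higher or lower below where its log2 ratio of PZKO over PS19 was at least 0.25 or at most -0.25, among genes with at least 100 UMIs in the class. Levels below are given for PS19 first, and the log2 ratio and its interval follow them in parentheses. Over all excitatory nuclei, *Gria4* had 578 CPM in PS19 and 760.2 CPM in PZKO (log2 ratio 0.40, 0.38 to 0.41). *Grik1* had 69 and 121 CPM (0.81, 0.76 to 0.86), and *Grik3* had 93.9 and 129 CPM (0.45, 0.41 to 0.50). These 3 were higher and none of the 9 was lower, where 11.3% of 16056 genes tested were higher and 24.8% lower. The background itself moved with the scaling, to 16.4% higher and 17.4% lower with TMM factors and 17.5% and 16.4% with DESeq2 size factors, and the 3 subunits stayed the higher ones. By CPM, 24.8% of the genes of at least 100 kb, as all subunits but *Grik5* are, were higher and 9.65% lower. The AMPA family as a whole had 5242 and 5113 CPM and the kainate family 1738 and 1695 CPM.

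The libraries mixed the excitatory clusters differently, so the comparison was repeated at one common mix, in which each of the 10 clusters had its mean share of both libraries. *Gria4* then stood at 645 and 639.9 CPM, a log2 ratio of -0.01 (-0.03 to 0.01), so its pooled difference was not there at a common mix. *Grik1* went from 0.81 to 0.36 (0.30 to 0.41), and *Grik3* kept most of its difference with 0.35 (0.30 to 0.39), at 109.5 and 139 CPM. *Gria1* changed sign, from -0.19 (-0.20 to -0.18) pooled to 0.18 (0.16 to 0.19) at the common mix. With dentate granule neurons left out, *Gria1* was at -0.08 (-0.09 to -0.07) pooled and 0.18 (0.17 to 0.20) at the common mix. The cause of the change of sign was not tested. With all 10 clusters at the common mix, *Gria2* was at 0.00 (-0.01 to 0.01), *Gria3* at 0.10 (0.08 to 0.12), *Grik2* at 0.04 (0.03 to 0.06), *Grik4* at -0.03 (-0.06 to 0.00) and *Grik5* at 0.11 (0.06 to 0.15). At the common mix 2 of the 9 subunits were higher and none lower, where 6.20% of all genes were higher and 20.4% lower. The value of *Grik1* rested on 1 cluster, as it was 0.16 without Exph5/Rskr, and it was 0.21 with equal weight for every cluster. *Grik3* stayed between 0.32 and 0.37 with any one cluster left out.

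**Figure D3:**
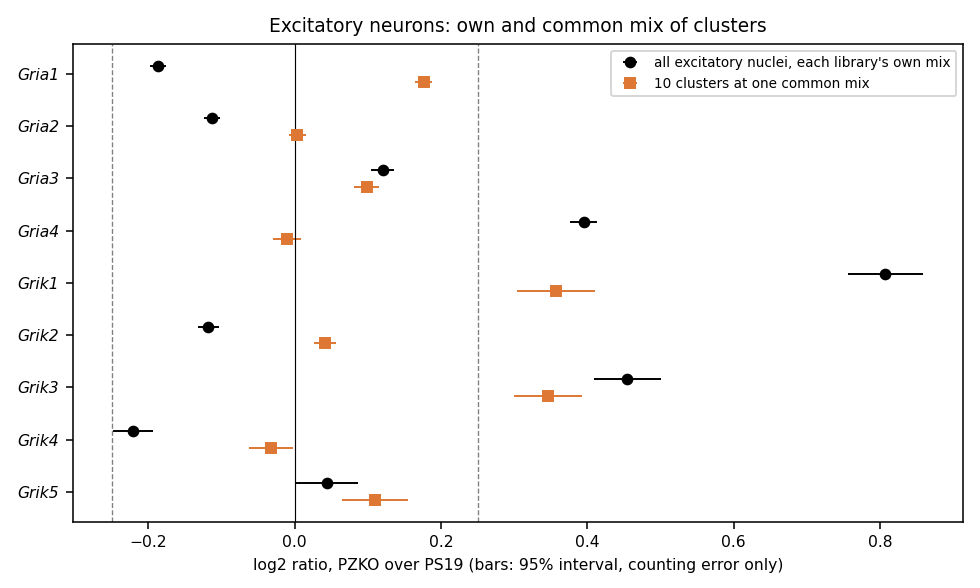
Log2 ratio of PZKO over PS19 in excitatory neurons (x axis) for each subunit, with all nuclei pooled (black circles) and at one common mix of the 10 clusters (orange squares), bars for 95% intervals of counting error and dashed lines at -0.25 and 0.25. *Gria4* moves from 0.40 to -0.01, *Gria1* from -0.19 to 0.18, and *Grik3* stays above 0.25.

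Within single classes the libraries differed by gene length in the median. The median log2 ratio of all genes lay between -0.09 and 0.01 in the 16 neuronal and glial classes compared, but that of genes of at least 100 kb lay between 0.05 and 0.16 and that of genes under 10 kb between -0.37 and -0.10. The 9 subunits, 8 of them long, had a median of 0.11 over 137 values tested, of which 100 were above 0, 27 higher and 4 lower. The share of long genes that were higher ran from 15.2% to 38.7% by class and that of long genes that were lower from 3.95% to 12.9%, and the median of the subunits lies within the range of the medians of long genes. The part of gene length in the single results was not tested.

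*Gria1* was above 0 in 9 of 10 excitatory clusters. It had 0.17 in dentate granule neurons, 0.16 in CA1 and 0.20 in CA3, all short of 0.25. Its largest excitatory difference was in Tshz2/Vwc2l, at 239.8 CPM in PS19 and 405 CPM in PZKO (0.75, 0.66 to 0.85), where the median nucleus had 134 CPM in PS19 and 218 in PZKO, so the difference was spread over nuclei. Fyb2/Zfp804b followed with 45.4 and 73.5 CPM from 23 and 232 UMIs (0.69, 0.07 to 1.38) and Adamts19/Synpo2 with 390.2 and 487 CPM (0.32, 0.21 to 0.44). *Gria2* stayed between -0.18 and 0.10 in all 10 excitatory clusters, and above 0 in 3 of them. The share of *Gria2* in the AMPA family per kb of gene span was lower in PZKO in each of the 10. It was also lower in other Lhx6, Adarb2, Ano2/Pld5 and Cajal-Retzius neurons, astrocytes and oligodendrocytes, and higher in Sst interneurons and OPCs. *Gria2* has the shortest span of the AMPA genes, 121 kb against 278 to 378 kb. The libraries differed by gene length, as given above, and the part of length in this share was not tested.

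*Gria4* was higher in CA3 (233 and 296 CPM, 0.34, 0.26 to 0.43), where it was 0.08 with a stricter filter on nuclei and 0.09 after subtraction of free RNA, and in Shoc1/Npsr1 (328 and 398 CPM, 0.28, 0.18 to 0.38), and was at -0.17 (-0.20 to -0.14) in Exph5/Rskr, the excitatory cluster that held the most UMIs of it. Among the excitatory clusters *Gria3* was higher in Fyb2/Zfp804b only (241 and 301 CPM, 0.32, 0.05 to 0.61), a cluster of 19 PS19 and 73 PZKO nuclei, where *Grik2* was lower (721 and 547 CPM, -0.40, -0.56 to -0.23).

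*Grik3* was the kainate subunit with the steadiest direction over the excitatory clusters by CPM. Under other processing its sign turned in CA1 and in Lhx6 and Adarb2 interneurons. It was above 0 in all 8 excitatory clusters in which it was tested, with a range of 0.06 to 0.54. Dentate granule neurons had 53.5 CPM in PS19 and 73.5 CPM in PZKO (0.46, 0.32 to 0.60), deep-layer neurons 406 and 518 CPM (0.35, 0.28 to 0.42) and near-projecting neurons 353 and 512 CPM (0.54, 0.41 to 0.66). In CA1 the call (5.98 and 8.37 CPM, 0.48, 0.01 to 0.97) rests on 57 and 114 UMIs at a level near that of microglia, and it turned to -0.58, from fewer than 100 UMIs, when each library was clustered by itself. In deep-layer neurons the median nucleus had 369 CPM in PS19 and 483 in PZKO, and 83 of 299 and 111 of 397 nuclei held 50% of its UMIs, a like breadth in both.

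*Grik1* went both ways. In Exph5/Rskr it was 39.1 CPM in PS19 and 116 CPM in PZKO (1.57, 1.41 to 1.74), from 338 and 2464 UMIs, and these were held by few nuclei: 1000 CPM was reached by 1 of 339 nuclei in PS19 and by 23 of 641 in PZKO, and 9 and 19 nuclei held 50% of the UMIs. In Tshz2/Vwc2l it was lower, at 50.5 and 31.7 CPM (-0.67, -0.92 to -0.42), where 3 of 287 and 4 of 467 nuclei held 50% of the UMIs. Near-projecting neurons, in which most nuclei held it, had 916 and 1106 CPM (0.27, 0.19 to 0.35), with 36 of 95 and 69 of 135 nuclei at 1000 CPM or more, and the ratio fell to 0.17 with doublets kept. Adamts19/Synpo2 had 364 and 506 CPM (0.47, 0.36 to 0.59). The call in CA1 (4.30 and 7.19 CPM, 0.74, 0.20 to 1.30) stands near the level of microglia, and it was 0.10 with doublets kept.

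*Grik4*, the CA3 subunit, was at 0.03 (-0.01 to 0.07) in CA3 and -0.17 (-0.24 to -0.11) in dentate granule neurons, and was higher in near-projecting neurons (110.2 and 161 CPM, 0.55, 0.32 to 0.77). *Grik5* was above 0 in 9 of 10 excitatory clusters and reached 0.25 in none. *Grik2*, with the most kainate UMIs, stayed between -0.08 and 0.14 in 9 of the 10 clusters, Fyb2/Zfp804b being the exception.

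Counted by cluster, these calls stood against the following backgrounds. In dentate granule neurons 1 of 8 subunits tested was higher, where 6.39% of all genes tested were higher and 25.2% lower. CA1 had 2 of 9 higher (7.24% and 21.3% of genes higher and lower), CA3 1 of 7 (13.8% and 19.8%), deep-layer neurons 1 of 8 (9.88% and 18.7%) and near-projecting neurons 3 of 9 (14.7% and 20.3%). Exph5/Rskr had 1 of 9 higher (14.4% and 15.1%), Tshz2/Vwc2l 1 higher and 1 lower of 9 (11.0% and 22.3%) and Shoc1/Npsr1 1 of 9 higher (12.7% and 19.0%). Adamts19/Synpo2 had 2 of 9 higher (15.0% and 20.1%), and Fyb2/Zfp804b 2 higher and 1 lower of 7 (25.3% and 25.6%). Of genes of at least 100 kb, the share higher ran from 15.2% in deep-layer neurons to 34.2% in Fyb2/Zfp804b. The share of them lower ran from 3.95% in CA3 to 12.9% in Fyb2/Zfp804b. Over the 10 clusters 15 of 84 values tested were higher and 2 lower, and 4 of the 15 belong to *Grik3*, 4 to *Grik1* and 3 to *Gria1*.

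**Figure D4:**
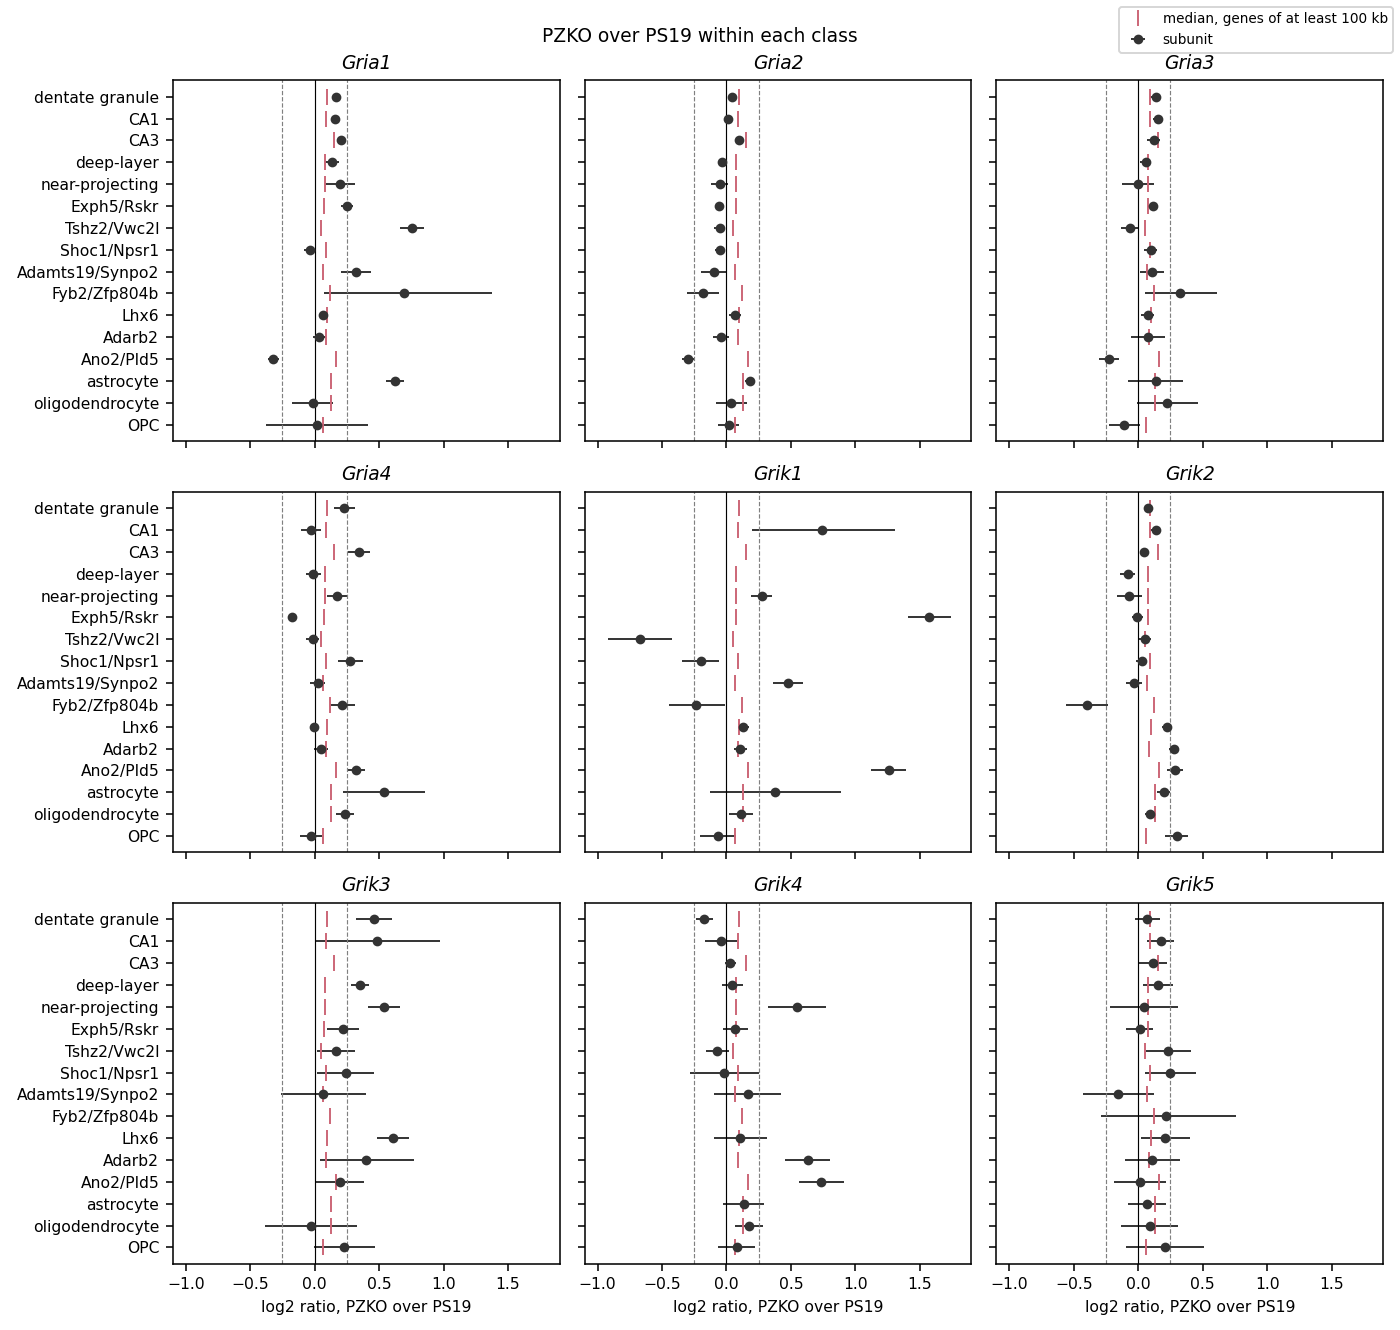
Log2 ratio of PZKO over PS19 (x axis) within each neuronal and glial class for each subunit, with black points and bars for the value and its 95% interval of counting error, red ticks for the median of genes of at least 100 kb in that class and dashed lines at -0.25 and 0.25. Values with fewer than 100 UMIs are left out. *Grik3* lies above 0 in 12 of 13 classes, while *Grik1* runs from -0.67 in Tshz2/Vwc2l to 1.57 in Exph5/Rskr.

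In the Lhx6, Adarb2 and Ano2/Pld5 clusters all 5 kainate subunits were above 0, with 7 of these 15 values past 0.25, but not in every subtype or under every clustering. In the Lhx6 cluster *Grik3* was the one higher subunit of 9, at 139 CPM in PS19 and 212 CPM in PZKO (0.61, 0.48 to 0.74), where 10.8% of all genes tested were higher and 20.9% lower, and it had 234 and 388 CPM in Sst and 64.8 and 95.1 CPM in other Lhx6 interneurons. The 2 libraries clustered apart gave -0.74 for it and -0.50 for *Grik1*, so these values depend on how the interneurons are delimited. In Sst interneurons 3 subunits were higher and 1 lower of 9, where 15.1% of all genes tested were higher and 22.8% lower. The higher ones were *Grik3*, *Grik2* (1816 and 2236 CPM, 0.30, 0.25 to 0.35) and *Grik5* (76.1 and 91.8 CPM, 0.27, 0.00 to 0.54), and the lower one was *Grik4* (81.2 and 67.4 CPM, -0.27, -0.55 to 0.01). In other Lhx6 interneurons *Grik3* and *Grik4* (45.7 and 62 CPM, 0.44, 0.12 to 0.77) were higher of 9, where 14.0% of all genes tested were higher and 20.8% lower, and *Grik1* was at -0.23 (-0.31 to -0.15). *Gria1* in Sst interneurons was at -0.06 (-0.09 to -0.02), and at 0.29 (0.24 to 0.35) without the sub-cluster rich in it, which held 34 of 98 PS19 and 22 of 122 PZKO nuclei. Without that sub-cluster *Grik5* was at 0.17 (-0.16 to 0.51), short of 0.25, while *Grik2*, *Grik3* and *Grik4* were at 0.37, 0.65 and -0.41.

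In Adarb2 interneurons 3 of 9 subunits were higher, where 12.1% of all genes tested were higher and 22.5% lower. They were *Grik2* (2447 and 2958 CPM, 0.27, 0.24 to 0.31), *Grik4* (109 and 169 CPM, 0.63, 0.46 to 0.81) and *Grik3* (26.9 and 35.5 CPM, 0.40, 0.04 to 0.77), the last from 101 and 171 UMIs and at -0.59 as a mean over nuclei. With each library clustered by itself, *Grik2* was at 0.10 and *Grik4* at 0.21, both short of 0.25. In the Ano2/Pld5 cluster 4 subunits were higher and 2 lower, where 22.1% of all genes tested were higher and 24.4% lower. *Grik1* had 194 and 464 CPM (1.26, 1.12 to 1.39), with 7 of 132 and 23 of 156 nuclei at 1000 CPM or more, and *Grik4* had 125 and 208 CPM (0.74, 0.56 to 0.91). *Gria1* (2813 and 2253 CPM, -0.32, -0.36 to -0.28) and *Gria2* (2017 and 1642 CPM, -0.30, -0.34 to -0.25) were lower and *Gria4* (877 and 1098 CPM, 0.32, 0.26 to 0.39) and *Grik2* (1109 and 1349 CPM, 0.28, 0.22 to 0.34) higher.

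In astrocytes *Gria1* was higher in PZKO, at 299.9 CPM in PS19 and 461 CPM in PZKO (0.62, 0.55 to 0.69), and the ratio was 1.56 after subtraction of free RNA. That second ratio compares smaller remainders and is not a sign of a larger difference. Free RNA was estimated at 13.9% of astrocyte UMIs in PS19 and 13% in PZKO, and *Gria1* stood at 1515 and 1501 CPM over all nuclei kept. In microglia the same estimate was 19.4% and 18.9%, yet they held only 66.5 and 75 CPM of *Gria1*. The estimate was thus too high for *Gria1* in microglia, and the subtraction may take too much of it from astrocytes. *Gria1* was found in 445 of 1083 PS19 and 654 of 1169 PZKO nuclei, and 107 and 183 nuclei reached 1000 CPM. Both astrocyte clusters showed it, with 363 and 475 CPM in the one led by *Gpc5* and *Gli3* (0.39, 0.29 to 0.49) and 258 and 447 CPM in the one led by *Aqp4* and *Gfap* (0.80, 0.70 to 0.90). *Grik2* was at 0.38 (0.32 to 0.44) in the Aqp4/Gfap cluster (719 and 935 CPM) and 0.00 (-0.09 to 0.09) in the other. *Gria4* (15.5 and 22.5 CPM) and *Grik1* (6.54 and 8.47 CPM, 0.37, -0.13 to 0.89) were also past 0.25, at the low levels set beside those of microglia above, and a stricter filter on nuclei turned them to -0.46 and -0.10. These 3 of 8 stood where 10.1% of all genes tested were higher and 25.9% lower.

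No subunit was past 0.25 in oligodendrocytes, where 9.97% of all genes tested were higher and 23.0% lower. The nearest was *Gria4*, at 327 CPM in PS19 and 385 CPM in PZKO (0.24, 0.17 to 0.31). The clusters of the class were mixed unequally, with 682 PS19 and 1258 PZKO nuclei in the Opalin/Aspa cluster and 1171 and 442 in the Bfsp2/Il33 cluster, and *Gria4* was at 0.01 (-0.10 to 0.11) in the first and 0.31 (0.15 to 0.48) in the second. In OPCs *Grik2* was the one higher subunit of 9 (1032 and 1269 CPM, 0.30, 0.21 to 0.39), where 15.8% of all genes tested were higher and 22.6% lower. It was 0.13 with a stricter filter on nuclei and 0.01 with doublets kept. With TMM factors or DESeq2 size factors 10 and 11 values in the 3 glial classes were past 0.25 in place of 4. The share of all genes that were higher rose with these factors too. It was 17.8% with TMM and 19.2% with DESeq2 in astrocytes, 14.6% and 18.1% in oligodendrocytes and 25.2% and 24.8% in OPCs. In pericytes, the mural cells of capillaries, *Gria1* was at 378 and 121 CPM from 147 and 60 UMIs, and 2 of the 112 PS19 nuclei held 50% of them.

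The partners of these receptors moved in both directions. All of them were counted with the same threshold and minimum as the subunits, and the counts over all excitatory neurons stand beside 11.3% of all genes higher and 24.8% lower. These counts pool clusters whose mix differed between the libraries, and no values at a common mix were computed for them. The difference between the libraries by gene length, given above, also bears on these genes, and its part in their values was not tested. AMPA receptor auxiliary subunits and partners numbered 17 genes tested in all excitatory neurons, of which 3 were higher and 3 lower with a median log2 ratio of -0.10, beside -0.07 for all genes. *Cnih2*, which slows the closing of AMPA receptors, was lower in all 7 clusters where it was tested (38.7 and 22 CPM over all excitatory neurons, -0.75 to -0.26 by cluster), and *Prrt1* in 7 of 10 (86.9 and 58.8 CPM). *Shisa9*, a partner that shapes desensitization, was higher in 7 of 10 clusters (301 and 323 CPM), *Gsg1l* in 6 of 9 (41.7 and 52.3 CPM) and *Cnih3* in 5 of 10 (73.5 and 66.3 CPM). *Cacng4* was higher in both clusters where it was tested (3.41 and 5.73 CPM) and *Cacng5* in 2 of 4 (5.82 and 5.43 CPM). *Shisa6* and *Cacng3*, the other members with the highest levels, had 454 and 383 CPM and 132 and 165 CPM, and were higher in 2 and 4 and lower in 1 and 2 of 10 clusters.

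Of the 4 kainate receptor auxiliary subunits and partners none was higher and 2 were lower over all excitatory neurons (median -0.45). *C1ql3*, a secreted protein that recruits kainate receptors at mossy fibre synapses, was lower in 6 of 8 clusters (249.9 and 131 CPM), and *C1ql2* in the 1 cluster where it was tested (11.5 and 3.44 CPM). *Neto1* and *Neto2*, the transmembrane auxiliary subunits, had 248 and 254 CPM and 67.9 and 72.9 CPM, and were higher in 1 cluster each and lower in 1 of 10 and 2 of 9. Among 16 trafficking and anchoring genes 3 were higher and 3 lower (median -0.05). *Grip1*, which binds AMPA receptor tails, was higher in 6 of 10 clusters (287 and 356 CPM), *Dlg3* in 5 of 10 (34.7 and 37.3 CPM), and the synaptic adhesion gene *Lrrtm1* was lower in 6 of 9 (32.3 and 23.9 CPM). *Lrrtm4* and *Nsf*, the most abundant with *Grip1*, had 3631 and 3512 CPM and 437 and 393 CPM. *Grid1*, which encodes a delta receptor, a relative of both families, was higher over all excitatory neurons (388 and 486 CPM) and in 8 of 10 clusters.

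Some genes followed the subunits closely from class to class. Likeness was measured as Pearson's r of log2(CPM + 10) over 24 classes and subtypes, as a description, since all points come from the same 2 libraries and differ in depth. *Gria2* was most like *Epha5* (r = 0.95), *Astn1* (0.94) and *Bmerb1* (0.93), and *Gria3* was most like *Rbfox1* (0.95), *Dok6* (0.93) and *Grm5* (0.93). For *Gria4* they were *Scg5* (0.94), *Xkr4* (0.91) and *Fgf12* (0.91), and for *Gria1* *C78859* (0.88), *Cacng8* (0.86), itself an AMPA receptor auxiliary subunit, and *Smim17* (0.86). *Grik1* was most like *Bcat1* (0.85), *Ank1* (0.83) and *Nxph1* (0.82), and *Grik2* was most like *Tmem132b* (0.91), *Lrp1b* (0.90) and *Otud7a* (0.88). For *Grik3* they were *Ftl1-ps1* (0.87), *Olfm3* (0.85) and *Lrrtm3* (0.84), where the first is a ferritin pseudogene whose reads may be shared with *Ftl2-ps*, which lies inside *Grik3*. *Grik4* had no gene as close, with *Dcc* (0.81), *Akap6* (0.75) and *Gm43049* (0.73), and for *Grik5* *Trim46* (0.86) and *Dclk1* (0.86) were among the closest.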

How the data were processed

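Nuclei from pooled hippocampi were sequenced as 1 library per genotype with 10x Genomics 3′ chemistry. The authors deposited raw UMI counts per gene and nucleus from Cell Ranger on mm10. The submitters' processing notes name version 7.0.1 and the file header names 8.0.1. The deposited counts are raw, without the ambient RNA correction and the filters on nuclei that the methods describe. Unspliced reads enter such counts, which favours long genes.

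The minimum for a nucleus was 600 UMIs and 300 genes, the maximum share of mitochondrial UMIs was 5%, and the highest Scrublet scores were removed as doublets at 0.8% per 1000 nuclei. The 2 libraries were clustered together in scanpy 1.11.5 (2000 variable genes, 30 components, 20 neighbours, leidenalg 0.10.2 at resolution 1), with neither the subunits nor the partner lists among the variable genes. A cluster took its name from fixed marker lists, with at least 3 markers at 2-fold or more, and other naming thresholds were chosen with the clusters in view. Of the 32 clusters 5, with 499 PS19 and 414 PZKO nuclei, stayed unnamed.

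UMIs were summed per class and library and scaled to CPM. Levels carry exact Poisson intervals, log2 ratios carry Clopper-Pearson intervals from the split of UMIs between libraries, and all cover counting error only. A fold of 0.25 in log2, the one the study states, was used for calls among genes with at least 100 UMIs. Gene spans and exons came from GENCODE M21 (GRCm38). The sums, ratios and intervals were tested on simulated data.

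The members, lists and alternatives were chosen with earlier results of these data known. The genes named are the 9 subunits, *Zbp1*, the 3 most abundant members of each partner list in excitatory neurons, list members past the fold in one direction in at least 50% of the excitatory clusters tested, and the 3 genes most alike to each subunit among those with at least 1000 UMIs. Genes that lead a cluster or lie inside a subunit gene were named after their values were seen, and some genes that the rule names are not reported here. Alternatives were TMM factors (edgeR 4.0.16) and DESeq2 1.42.0 size factors on the class sums, means over nuclei, subtraction of a free-RNA profile, stricter (1000 UMIs, 500 genes, 1% mitochondrial UMIs) and no filters, doublets kept, separate clustering, resolution 0.5, the subunits among the variable genes, equal cluster weights, other length scales, thinning to 1000 UMIs or none, and at least 20 UMIs in each library.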

Additional observations from a re-analysis of the deposited data

Results flagged for a closer look

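*Grik1* moved in opposite directions in 2 excitatory clusters. In Exph5/Rskr the log2 ratio of PZKO over PS19 was 1.57 (95% interval 1.41 to 1.74), and in Tshz2/Vwc2l it was -0.67 (-0.92 to -0.42). The difference between the 2 clusters was not tested, because each genotype has 1 library. In Exph5/Rskr 9 of 339 PS19 and 19 of 641 PZKO nuclei held 50% of its UMIs, and in Tshz2/Vwc2l 3 of 287 and 4 of 467 did.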

How the results depend on the processing

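No paired analysis was possible because each genotype has 1 library and no replicate. For the same reason no library could be left out. Of the 19 calls among 94 values in the named classes and over all excitatory neurons, TMM and DESeq2 scaling kept all 19 and added 11 and 13, separate clustering kept 15 and added 11, and the stricter filter kept 12 of 16. TMM and DESeq2 scaling also raised the share of all genes that were higher in each of these classes, in astrocytes from 10.1% to 17.8% and 19.2%. Signs turned for *Grik3* in CA1 (-0.58) and Lhx6 interneurons (-0.74) with separate clustering, for *Grik3* in Adarb2 interneurons (-0.59) as a mean over nuclei, and for *Gria4* (-0.46) and *Grik1* (-0.10) in astrocytes with the stricter filter; the cause was not tested. Higher values in the 3 glial classes numbered 4 by CPM, 10 with TMM, 11 with DESeq2 and 7 with separate clustering, and lower values numbered 0, but 2 with the stricter filter, 3 with doublets kept and 1 with separate clustering. In the Lhx6 and Adarb2 clusters 4 were higher and 0 lower, against 2 higher at resolution 0.5, where no Adarb2 cluster was named, 1 lower as means over nuclei and 2 lower with separate clustering. Lower values numbered 0 in the 5 named excitatory subtypes and 0 over all excitatory neurons, but 1 of the first with separate clustering (*Gria4* in CA1, -0.32; *Grik3* there had fewer than 100 UMIs and was not counted) and 1 of the second as means over nuclei. Equal cluster weights left 1 of the 2 higher subunits at a common mix. The number of classes led by a subunit depends on the length scale, and the value per kb of gene span stands in parentheses. Without scaling, per kb of exons and after free-RNA subtraction in turn, *Gria1* led 8, 15 and 5 classes (1) and *Gria2* led 11, 1 and 15 (22). *Gria3* led 1, 1 and 2 (0) and *Gria4* led 4, 7 and 2 (1). In the same order, *Grik1* led 1, 4 and 5 (3), *Grik2* led 21, 13 and 7 (7), *Grik4* led 1, 4 and 0 (0) and *Grik5* led 1, 3 and 12 (14). The free-RNA subtraction left no AMPA UMIs in microglia, endothelial, choroid plexus and ependymal cells. These have no leader and count for *Gria1* only as the first gene listed, so of its 5 classes Sst interneurons alone had a leader. Microglia and endothelial cells were left without kainate UMIs and count for *Grik1* in the same way. Added after the data were seen were the Sst interneurons without 1 sub-cluster and the common mix without each cluster. The near-projecting cluster was not found with the stricter filter or at resolution 0.5. Free RNA, estimated at 6.9% to 30.4% of a class, limits levels under that of microglia.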
